A study of Mus musculus with 8 samples.

Results

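The 7 genes described here, Piezo1, Piezo2, Tmem63a, Tmem63b, Tmem63c, Tmem120a and Tmem150c, encode channels, or proteins proposed to be channels, that respond to mechanical force. They were taken by symbol from the 25780 genes counted in every library, and all 7 passed the filter on low counts, as did 20235 genes in all. The question the design addresses is whether loss of the histone methyltransferase G9a from sensory neurons alters gene expression in dorsal root ganglia with and without paw inflammation. Bulk RNA of whole ganglia, which hold the cell bodies of the sensory neurons, was sequenced from 4 groups of mice with 2 libraries each. The iKO mice were homozygous for floxed G9a (Ehmt2) and carried the inducible Cre recombinase Avil-iCreERT2/AJwo, which is active in Avil-expressing sensory neurons, so glia, vessels and immune cells of the ganglion keep the gene. The WT mice were their littermates that lacked Cre, with floxed alleles neither stated nor denied. In each genotype the left paw received either complete Freund's adjuvant (CFA), a mycobacterial suspension in oil that causes lasting inflammation, or vehicle, and ganglia were taken on day 14. The side and level of the ganglia, the age of the mice, how Cre was induced and whether a library is 1 animal or a pool are not stated, so p-values measure only library-to-library spread, which may be technical.

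Piezo1 and Piezo2 are very large membrane proteins that assemble as trimers and open directly when the membrane is stretched, letting cations in. Piezo2 is the main channel of touch and of the sense of limb position in sensory neurons, whereas Piezo1 is best known from endothelium, red blood cells and immune cells. The Tmem63 proteins belong to the OSCA/TMEM63 family, whose plant relatives respond to osmotic stress, and open at higher membrane tension than the Piezo channels. Tmem120a (TACAN) was proposed as a channel for mechanical pain, a role that later structures resembling a lipid enzyme put in dispute, and Tmem150c (Tentonin 3) was proposed as a slowly adapting channel or as a modulator of Piezo2.

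Each library held between 26312614 and 42971823 reads assigned to genes. Levels are given as CPM, reads scaled to a common library size after TMM scaling (which corrects library sizes for composition), and changes as log2 fold changes ± standard error, positive where the group named first was higher. A call is an adjusted p below 0.05 in edgeR's quasi-likelihood test with Benjamini-Hochberg adjustment over the 20235 genes. The targeted gene Ehmt2 was at 45.0 and 44.2 CPM in iKO CFA, 34.0 and 31.6 CPM in iKO vehicle, 74.2 and 61.3 CPM in WT CFA and 74.4 and 65.4 CPM in WT vehicle, so every iKO library lay below every WT library. The change passed the test under vehicle (-1.09 ± 0.18, adjusted p = 0.00655 in edgeR's quasi-likelihood test), though not without WT vehicle library 1 or without either iKO vehicle library (adjusted p up to 0.0958), and did not pass under CFA (-0.60 ± 0.18, adjusted p = 0.154).

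The WT vehicle libraries stood apart from the other 6. The summed level of 9 lymphocyte markers was 44.6 to 53.1 CPM in iKO CFA, 17.4 to 20.8 CPM in iKO vehicle and 3.74 to 8.97 CPM in WT CFA, against 870 to 2124 CPM in WT vehicle. That of 8 immediate early genes was 111 to 160 CPM in the other 6 libraries, against 540 to 660 CPM in WT vehicle, and Malat1, a nuclear noncoding RNA, was at 27.4 to 57.0 CPM, against 1323 and 1187 CPM. The WT CFA libraries differed most from each other, with a median absolute log2 difference over all genes of 0.20 in iKO CFA, 0.17 in iKO vehicle, 0.59 in WT CFA and 0.28 in WT vehicle. Within WT CFA, 13 mitochondrial genes took 3.94% of the reads of library 1 and 12.1% of those of library 2. Between the same 2 libraries, erythroid markers summed to 166 CPM in library 1 and 1423 CPM in library 2, neutrophil markers to 26.4 and 226 CPM, and 9 markers of myelinating Schwann cells to 7567 and 18305 CPM. WT vehicle library 1 alone was high in 8 skeletal muscle markers, summing to 424 CPM, against 6.97 CPM in WT vehicle library 2 and 1.36 to 6.31 CPM in the other 6 libraries. The part of these differences in the results below was not tested beyond the values given without each library.

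Among the 7 genes, the calls were Piezo1, which fell in WT mice after CFA and was lower in iKO vehicle than in WT vehicle, and Tmem63b, which was higher in iKO vehicle than in WT vehicle. The CFA response of Piezo1 also differed between genotypes. After CFA in iKO mice, and between iKO and WT mice under CFA, none of the 7 genes passed edgeR's test with all 8 libraries. Several members passed once a WT CFA library was left out, and so did many other genes. Such fits keep a lone WT CFA library, assumed to vary like the other groups. The spread between the WT CFA libraries then no longer enters the estimate. Without WT CFA library 1 or 2 the share of all tested genes called was 32.2% or 32.0% in iKO CFA against iKO vehicle, 34.6% or 29.9% in WT CFA against WT vehicle, 39.2% or 38.9% in iKO vehicle against WT vehicle, 3.29% or 26.8% in iKO CFA against WT CFA and 21.4% or 38.2% in the interaction. With only the groups compared in the fit it was 45.3% in iKO CFA against iKO vehicle and 42.9% in iKO vehicle against WT vehicle, and in DESeq2 it was 17.0% in the first of these. The plot of levels by library shows the values behind these calls.

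**Figure D1:**
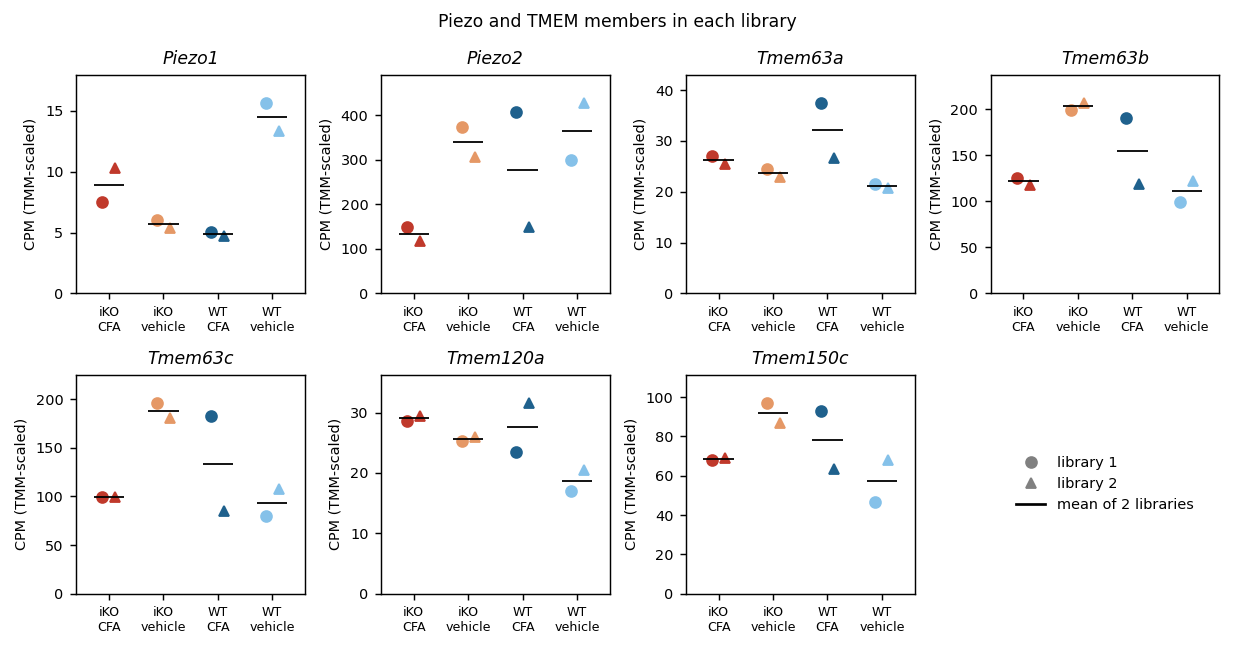
Level of each of the 7 genes in CPM (linear axes from 0) in the iKO CFA, iKO vehicle, WT CFA and WT vehicle libraries. Circles and triangles are libraries 1 and 2, and bars their mean; Piezo1 is highest in WT vehicle at 15.6 and 13.3 CPM, and Piezo2 ranges from 118 to 427 CPM.

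Piezo1 had 250 and 375 reads in iKO CFA, 245 and 186 in iKO vehicle, 188 and 139 in WT CFA and 467 and 447 in WT vehicle. In CPM these were 7.53 and 10.3 in iKO CFA, 6.01 and 5.34 in iKO vehicle, 5.02 and 4.76 in WT CFA and 15.6 and 13.3 in WT vehicle. WT vehicle was highest, followed by iKO CFA, iKO vehicle and WT CFA, and no neighbouring groups in this order overlapped. Between iKO CFA and iKO vehicle the same held for 69.5% of all genes. The share was not counted for the other neighbouring groups.

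After CFA, Piezo1 in WT mice averaged 4.89 ± 0.19 CPM, against 14.5 ± 1.65 CPM after vehicle (SD, n = 2 each). The level after CFA was thus 0.338 times that after vehicle, a log2 fold change of -1.57 ± 0.25 (95% interval -2.13 to -0.996, adjusted p = 0.00713 in edgeR's quasi-likelihood test). Across all genes tested 16.8% were called in this comparison, 8.71% lower and 8.12% higher, and of the 7 members 1 was lower and 0 were higher. Without WT vehicle library 1 the change was -1.45 and the call was lost (adjusted p = 0.0772).

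In vehicle-treated mice, Piezo1 averaged 5.67 ± 0.47 CPM in iKO and 14.5 ± 1.65 CPM in WT (SD, n = 2 each), a log2 fold change of -1.35 ± 0.25 (95% interval -1.91 to -0.79, adjusted p = 0.0103 in edgeR's quasi-likelihood test). In this comparison 17.6% of all genes were called, 9.33% lower and 8.28% higher, and among the members 1 was lower and 1 higher. The Piezo1 call ended on leaving out WT vehicle library 1 (-1.25, adjusted p = 0.0950), and likewise on leaving out library 1 (-1.44, adjusted p = 0.0778) or library 2 (-1.26, adjusted p = 0.115) of iKO vehicle. Both this comparison and that of WT CFA with WT vehicle rest on the same WT vehicle libraries, so their values are not independent.

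In iKO mice, Piezo1 averaged 8.91 ± 1.94 CPM after CFA and 5.67 ± 0.47 CPM after vehicle. Both CFA libraries lay above both vehicle libraries, as they did for 33.9% of all genes. The change of 0.65 ± 0.25 did not pass the test (95% interval 0.09 to 1.21, adjusted p = 0.134 in edgeR's quasi-likelihood test). It passed when either WT CFA library was left out (0.64, adjusted p = 0.0466 without library 1 and 0.0465 without library 2) and with the iKO libraries alone (0.68, adjusted p = 0.0296). The difference between the CFA responses, that in iKO minus that in WT, was 2.22 ± 0.35 on the log2 scale (95% interval 1.42 to 3.01, adjusted p = 0.00984 in edgeR's quasi-likelihood test). This interaction was called for 9.36% of all genes, 6.19% in the positive and 3.17% in the negative direction, and for Piezo1 alone among the 7 members. It lost its call without WT vehicle library 1 (2.12, adjusted p = 0.0616) or without iKO vehicle library 2 (2.13, adjusted p = 0.0612). Under CFA, Piezo1 at 8.91 ± 1.94 CPM in iKO and 4.89 ± 0.19 CPM in WT gave 0.86 ± 0.25 (adjusted p = 0.150, and 0.0493 in DESeq2), where 1.7% of all genes were called, 1.5% higher and 0.208% lower, and 0 of 7 members. Its libraries did not overlap there, as was so for 38.3% of all genes, 21.6% with iKO CFA on top.

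**Figure D2:**
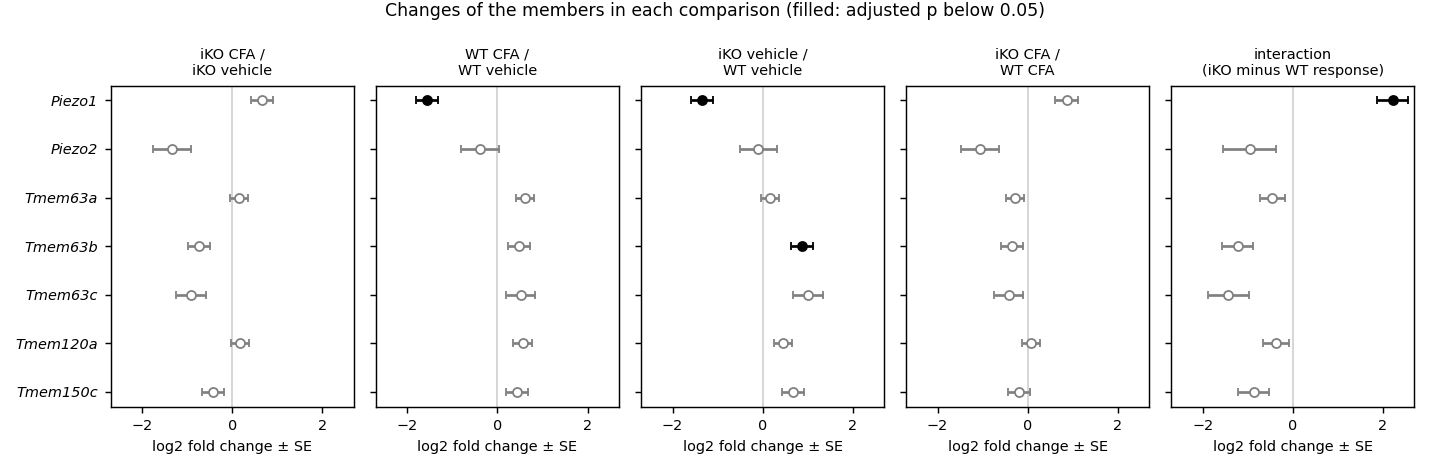
Log2 fold change of each of the 7 genes ± standard error in the 4 comparisons of groups and in the interaction (CFA response in iKO minus that in WT), with the group named first on top of the ratio. Filled points passed an adjusted p of 0.05: Piezo1 at -1.57, -1.35 and 2.22, and Tmem63b at 0.88.

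The promoter window of Piezo1 is shown because this gene carries most of the calls. It is taken from RefSeq on the mouse build GRCm38.p6, whereas the counts were made on GRCm39, and no coordinate was converted. Each window spans 250 bases before to 50 bases after a gene's start and is printed 5′ to 3′ on the gene's strand. Capitals mark matches, on either strand, to the TATA box (TATAAA), the cAMP response element (TGACGTCA), the AP-1 site (TGANTCA), the GC box (GGGCGG) or the CCAAT box (CCAAT). Piezo1 lies on the minus strand at chr8:122551280-122551579.
Piezo1: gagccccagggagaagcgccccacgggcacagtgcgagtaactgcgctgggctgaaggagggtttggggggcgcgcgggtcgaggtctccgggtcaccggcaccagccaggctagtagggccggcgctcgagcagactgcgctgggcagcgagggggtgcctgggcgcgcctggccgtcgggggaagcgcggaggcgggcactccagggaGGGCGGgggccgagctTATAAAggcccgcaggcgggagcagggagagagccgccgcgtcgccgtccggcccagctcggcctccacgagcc
The window held 34 CpG dinucleotides, against a median of 7 over 32851 RefSeq windows, 1 TATA box match and 1 GC box match. Among all windows 13.6% held a TATA box match and 35.7% a GC box match, and a match is a description of letters and no sign of binding.

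In bulk tissue, fewer cells of a type and less RNA per cell cannot be told apart. The summed level of 14 endothelial markers was 381 to 393 CPM in iKO CFA, 176 to 192 CPM in iKO vehicle, 183 to 298 CPM in WT CFA and 266 to 295 CPM in WT vehicle. That of 10 macrophage markers was 312 to 338 CPM in iKO CFA, 104 to 128 CPM in iKO vehicle, 134 to 384 CPM in WT CFA and 384 to 513 CPM in WT vehicle. Endothelial markers at 0 numbered 0 in every library, as did macrophage markers, while 2 lymphocyte markers were at 0 in a WT CFA library. The most abundant endothelial marker, Vwf, was at 67.0 and 72.9 CPM in iKO CFA, 21.5 and 21.2 in iKO vehicle, 17.5 and 18.2 in WT CFA and 35.5 and 29.7 in WT vehicle. Endothelial markers differed among themselves. Egfl7, the next most abundant, was at 44.7 and 36.7 CPM in iKO CFA, 22.6 and 21.1 CPM in iKO vehicle, 28.6 and 49.7 CPM in WT CFA and 25.6 and 25.5 CPM in WT vehicle, above Vwf in both WT CFA libraries. Of the 14 endothelial markers 0 were higher and 5 lower in iKO vehicle against WT vehicle, and 1 was higher and 2 lower in WT CFA against WT vehicle. Over all genes, 8.28% were higher and 9.33% lower in the first comparison, and 8.12% and 8.71% in the second. Of 10 macrophage markers 9 were lower in the first and 1 in the second, and of 9 lymphocyte markers 7 and 9, with 0 higher. Of the neutrophil and erythroid markers 0 were called in either comparison. The summed level of 6 neutrophil markers was 1365 to 1371 CPM in iKO CFA, 62.5 to 90.2 CPM in iKO vehicle, 26.4 to 226 CPM in WT CFA and 21.7 to 42.2 CPM in WT vehicle, and that of 4 erythroid markers was 1489 to 1556 CPM in iKO CFA, 318 to 396 CPM in iKO vehicle, 166 to 1423 CPM in WT CFA and 130.5 to 306 CPM in WT vehicle. The lymphocyte, macrophage and endothelial sums, like Piezo1, were lower in iKO vehicle than in WT vehicle, whereas the neutrophil and erythroid sums were higher. In WT CFA the lymphocyte sums lay below those of WT vehicle, while the endothelial and macrophage sums overlapped them. Endothelial sums were higher in iKO CFA than in WT vehicle, whereas Piezo1 was lower in iKO CFA. Sums of 8 pericyte and smooth muscle markers were 373 to 379 CPM in iKO CFA and 249 to 267 CPM in iKO vehicle. In WT mice they were 316 to 333 CPM after CFA and 224 to 235 CPM after vehicle. The part of these markers in the Piezo1 changes was not tested. The reverse-strand neighbour Ctu2, which overlaps Piezo1 in the GENCODE M21 annotation, had -0.02 ± 0.23 in iKO vehicle against WT vehicle and 0.65 ± 0.23 in WT CFA against WT vehicle, and passed in none of the comparisons. The strand setting of the counting is not stated.

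Among 10464 genes with a mean log2 CPM of at least 3, the 5 whose log2 CPM followed Piezo1 most closely over the 8 libraries were Arhgef2, Hdac7, Fyb, Jchain and Jmjd6, with Pearson correlations of 0.98 each. Hdac7 encodes a class IIa histone deacetylase and Fyb an adaptor protein of T cells. Jchain, the joining chain of antibodies made by plasma cells, was at 23.4 and 31.5 CPM in iKO CFA, 4.73 and 2.30 CPM in iKO vehicle, 0.96 and 0.44 CPM in WT CFA and 1944 and 780 CPM in WT vehicle. All 5 genes were highest in both WT vehicle libraries. Hdac7, Fyb and Jchain reached the mean log2 CPM of 3 only because these libraries were included, and Piezo1 itself fell short of it. The choice of genes thus rests in part on the same high WT vehicle levels as the Piezo1 pattern. Which genes would be listed without these libraries was not tested. The correlations with Piezo1 share the 8 libraries and their grouping with all values above and are descriptions.

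Piezo2, the touch channel of sensory neurons, was at 149 and 118 CPM in iKO CFA, 374 and 306 CPM in iKO vehicle, 407 and 148 CPM in WT CFA and 300.4 and 427 CPM in WT vehicle. The 2 iKO CFA libraries were low and did not overlap iKO vehicle, and within WT CFA library 1 was high and library 2 low. WT vehicle had the highest mean, followed by iKO vehicle, WT CFA and iKO CFA, and each neighbouring pair in this order overlapped.

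In iKO mice Piezo2 averaged 134 ± 22.3 CPM after CFA and 340 ± 48.0 CPM after vehicle (SD, n = 2 each). This log2 fold change of -1.35 ± 0.42 had a 95% interval of -2.30 to -0.39 and did not pass the test (adjusted p = 0.106 in edgeR's quasi-likelihood test). In this comparison 0 of 7 members and 8 genes in all were called, 0.0395% of those tested and all 8 higher (0% lower), and 5791 genes had an unadjusted p under 0.05. Both CFA libraries lay on 1 side of both vehicle libraries for all 7 members, 3 above and 4 below, as they did for 69.5% of all genes, 33.9% above and 35.6% below. The call of Piezo2 depended on which libraries were fitted. Its adjusted p was 4.0e-04 without WT CFA library 1 (-1.36), 3.7e-04 without WT CFA library 2 (-1.36) and 4.6e-05 when the iKO libraries alone were fitted (-1.32), and DESeq2 gave 0.0120 (-1.32).

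In WT mice Piezo2 averaged 278 ± 183 CPM after CFA and 364 ± 89.6 CPM after vehicle, which gave -0.39 ± 0.41 (adjusted p = 0.556 in edgeR's quasi-likelihood test). This value rested on which WT CFA library was used. Without library 1 it was -1.30, and without library 2 it was 0.16, each with a lone WT CFA library in the comparison. Under CFA, Piezo2 averaged 134 ± 22.3 CPM in iKO and 278 ± 183 CPM in WT, a change of -1.06 ± 0.42 (adjusted p = 0.289 in the same test). Without WT CFA library 2, and so against a lone WT CFA library, this change was -1.62.

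Under vehicle, Piezo2 averaged 340 ± 48.0 CPM in iKO and 364 ± 89.6 CPM in WT. The log2 fold change was -0.10 ± 0.41 with a 95% interval of -1.04 to 0.84, so differences between those bounds were within error. Its sign turned without WT vehicle library 2 (0.16) and without iKO vehicle library 2 (0.043). The interaction was -0.96 ± 0.59 (adjusted p = 0.293) and passed without WT CFA library 2 (-1.52, adjusted p = 0.00173).

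Markers of touch and position neurons lay beside these values. The summed level of 17 mechanoreceptor and proprioceptor markers was 1837 to 1857 CPM in iKO CFA, 3603 to 3725 CPM in iKO vehicle, 1998 to 3095 CPM in WT CFA and 2119 to 2495 CPM in WT vehicle, with no marker at 0. Their members differed among themselves. Nefh, the heavy neurofilament of large myelinated neurons, was at 906 and 889 CPM in iKO CFA, 2241 and 2375 CPM in iKO vehicle, 1839 and 899 CPM in WT CFA and 970 and 1314 CPM in WT vehicle. Spp1, the secreted protein osteopontin and the next most abundant, was at 204 and 251 CPM in iKO CFA, 158 and 162 CPM in iKO vehicle, 146 and 260.1 CPM in WT CFA and 343 and 232 CPM in WT vehicle. Ntrk2, next after Spp1, was at 186 and 191 CPM in iKO CFA and 271 and 250 CPM in iKO vehicle. In WT mice Ntrk2 was at 248 and 201 CPM after CFA and 170 and 181 CPM after vehicle. The iKO CFA libraries were thus low for Nefh and Ntrk2 and high for Spp1 beside iKO vehicle. The median log2 fold change of the 17 markers was -0.89 in iKO CFA against iKO vehicle, beside -0.0011 over all genes. In that comparison 0 of 17 were called, against 0.0395% of all genes. In iKO vehicle against WT vehicle 1 was higher and 1 lower, where 8.28% of all genes were higher and 9.33% lower. The part of these markers in the Piezo2 values was not tested. The 5 genes most like Piezo2 among 10463 over the 8 libraries were Slc20a1, a phosphate transporter (Pearson correlation 0.998), Zmym2, Amer2, Cblb and the neuronal transcription factor Myt1l (0.99 each). Slc20a1 was at 65.7 and 59.8 CPM in iKO CFA, 109 and 99.7 CPM in iKO vehicle, 112 and 67.2 CPM in WT CFA and 100.2 and 116 CPM in WT vehicle. Piezo1 and Piezo2 themselves had a correlation of 0.05 over the 8 libraries.

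**Figure D3:**
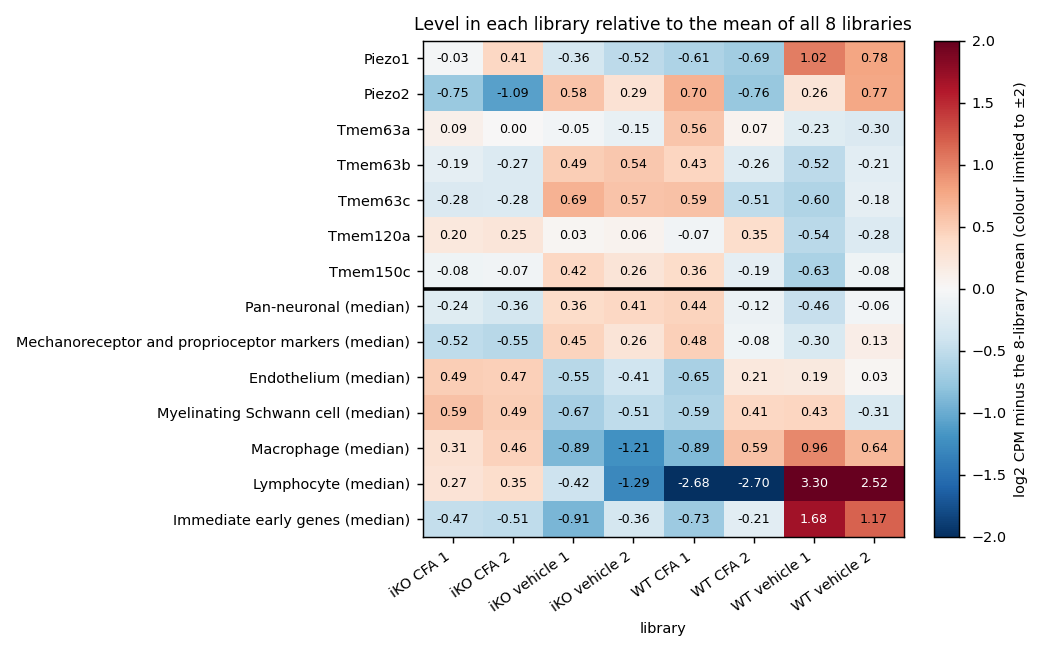
Log2 CPM minus the mean of all 8 libraries for the 7 genes (upper block) and the median of the same value over marker lists (lower block), by library, with the colour limited to ±2. Piezo1 is at 1.02 and 0.78 in the WT vehicle libraries and at -0.61 and -0.69 in WT CFA, and Tmem63b and Tmem63c are above 0 in iKO vehicle and in WT CFA library 1 only.

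Tmem63b, one of the widely expressed TMEM63 channels, was at 125 and 118 CPM in iKO CFA, 199.5 and 207 CPM in iKO vehicle, 191 and 118 CPM in WT CFA and 98.8 and 123 CPM in WT vehicle. The 2 iKO vehicle libraries were the highest of all 8. Tmem63c, its close relative, was at 99.4 and 99.6 CPM in iKO CFA, 196 and 180 CPM in iKO vehicle, 182 and 84.7 CPM in WT CFA and 79.7 and 107 CPM in WT vehicle. Here too iKO vehicle was high, and WT CFA library 1 lay among the iKO vehicle values. Tmem150c was at 68.2 and 68.9 CPM in iKO CFA, 96.8 and 86.8 CPM in iKO vehicle, 92.8 and 63.5 CPM in WT CFA and 46.7 and 68.2 CPM in WT vehicle. The 3 genes followed each other over the 8 libraries, with Pearson correlations of log2 CPM of 0.98 between Tmem63b and Tmem63c and 0.93 between each of them and Tmem150c. These points share library depth and cell makeup and the values are descriptions.

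Under vehicle, Tmem63b averaged 203 ± 4.98 CPM in iKO and 111 ± 16.8 CPM in WT (SD, n = 2 each). The iKO level was 1.83 times that of WT, a log2 fold change of 0.88 ± 0.24 (95% interval 0.32 to 1.43, adjusted p = 0.0411 in edgeR's quasi-likelihood test). The call was lost without 6 of the 8 libraries in turn, the exceptions being the 2 WT CFA libraries, with values between 0.71 without WT vehicle library 1 (adjusted p = 0.281) and 1.02 without WT vehicle library 2 (adjusted p = 0.0822). It was also lost with library totals in place of TMM scaling (0.63, adjusted p = 0.101). Tmem63c averaged 188 ± 10.9 CPM in iKO and 93.4 ± 19.4 CPM in WT, a change of 1.01 ± 0.33 (adjusted p = 0.0648), and Tmem150c 91.8 ± 7.07 CPM in iKO and 57.5 ± 15.2 CPM in WT, a change of 0.68 ± 0.24 (adjusted p = 0.0883). Both passed without either WT CFA library (adjusted p of at most 0.00045 for Tmem63c and 0.00785 for Tmem150c) and with only the vehicle groups fitted (0.00358 for Tmem63c and 0.0269 for Tmem150c). For all members but Piezo2 the iKO vehicle and WT vehicle libraries did not overlap, which held for 75.4% of all genes, 38.9% with iKO vehicle on top and 36.5% with WT vehicle on top. Mrpl14, which overlaps Tmem63b on the opposite strand in GENCODE M21, had 0.24 ± 0.19 in the same comparison (adjusted p = 0.415). Tmem63a, Tmem63b and Tmem150c overlap antisense genes in that annotation, and without a known strand setting reads of such pairs cannot be told apart.

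After CFA in iKO mice, Tmem63b averaged 121 ± 4.79 CPM against 203 ± 4.98 CPM after vehicle, a change of -0.74 ± 0.24 (adjusted p = 0.111 in edgeR's quasi-likelihood test). Tmem63c averaged 99.5 ± 0.19 CPM against 188 ± 10.9 CPM, a change of -0.92 ± 0.33 (adjusted p = 0.123). Neither change passed in edgeR's test with all 8 libraries. Both passed without either WT CFA library (adjusted p from 7.3e-04 to 0.00128), with the iKO libraries alone (6.6e-05 for Tmem63b and 2.0e-05 for Tmem63c) and in DESeq2 (0.0250 for Tmem63b and 0.0364 for Tmem63c). Tmem150c averaged 68.6 ± 0.49 CPM after CFA and 91.8 ± 7.07 CPM after vehicle, a change of -0.42 ± 0.24 (adjusted p = 0.281) that passed with the iKO libraries alone (0.00390). When either WT CFA library was left out, 4 members passed in iKO CFA against iKO vehicle, namely Piezo1 above its vehicle level and Piezo2, Tmem63b and Tmem63c below theirs, beside 6948 genes called in all without library 1 and 6951 without library 2, where 8 were called with all libraries.

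In WT mice Tmem63b averaged 155 ± 51.3 CPM after CFA and 111 ± 16.8 CPM after vehicle, Tmem63c 134 ± 69.0 CPM after CFA and 93.4 ± 19.4 CPM after vehicle, and Tmem150c 78.2 ± 20.7 CPM after CFA and 57.5 ± 15.2 CPM after vehicle (SD, n = 2 each). Their log2 fold changes lay between 0.44 and 0.52, with adjusted p of 0.200 for Tmem63b, 0.304 for Tmem63c and 0.239 for Tmem150c in edgeR's quasi-likelihood test. Without WT CFA library 2 each of them passed, at 0.79 (adjusted p = 0.00376), 0.96 (adjusted p = 0.00239) and 0.69 (adjusted p = 0.0220) in the same order. Without WT CFA library 1 none of the 3 passed and Tmem63c was at -0.15. Under CFA the iKO and WT libraries overlapped for all members but Piezo1, and the 3 genes had changes of -0.35 ± 0.24, -0.42 ± 0.32 and -0.19 ± 0.24. Those 3 turned to 0.040, 0.23 and 0.11 without WT CFA library 1, and without library 2 Tmem63b (-0.66, adjusted p = 0.00918) and Tmem63c (-0.88, adjusted p = 0.00365) passed. The interaction was -1.22 ± 0.34 for Tmem63b (adjusted p = 0.0584), -1.43 ± 0.46 for Tmem63c (adjusted p = 0.0810) and -0.86 ± 0.34 for Tmem150c (adjusted p = 0.131). Tmem63b and Tmem63c passed without either WT CFA library, with values between -0.78 and -1.89, and Tmem150c without library 2 (-1.12, adjusted p = 0.00511).

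**Figure D4:**
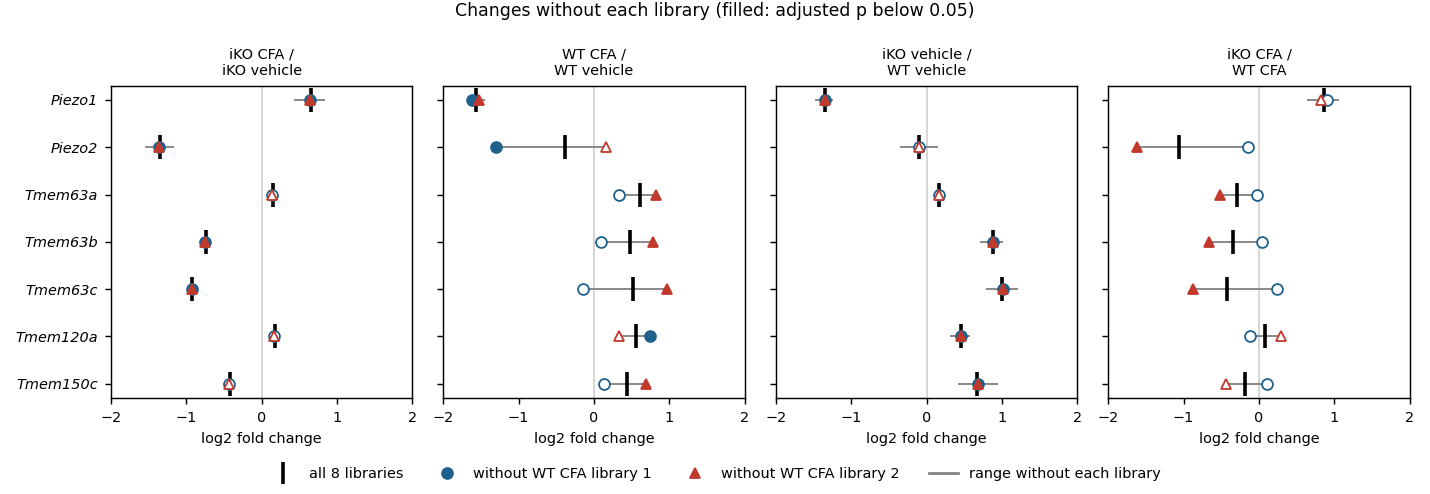
Log2 fold change of each of the 7 genes in 4 comparisons with all 8 libraries (black bars), without WT CFA library 1 (circles) and without WT CFA library 2 (triangles), with grey lines for the range over all 8 libraries left out in turn. Filled symbols passed an adjusted p of 0.05; in WT CFA against WT vehicle, Piezo2 runs from -1.30 to 0.16.

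The promoter windows of these 3 genes are shown because the levels of these genes ran together. Where RefSeq gives several starts, the window listed first is printed. Tmem63b lies on the minus strand at chr17:45686169-45686468, Tmem63c on the plus strand at chr12:87021090-87021389 and Tmem150c on the minus strand at chr5:100159526-100159825.
Tmem63b: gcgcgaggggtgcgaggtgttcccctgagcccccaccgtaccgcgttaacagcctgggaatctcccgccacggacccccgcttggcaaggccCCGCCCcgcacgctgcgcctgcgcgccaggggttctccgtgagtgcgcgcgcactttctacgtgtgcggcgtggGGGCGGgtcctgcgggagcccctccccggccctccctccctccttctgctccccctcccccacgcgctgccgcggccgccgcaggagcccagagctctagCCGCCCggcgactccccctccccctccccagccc
Tmem63c: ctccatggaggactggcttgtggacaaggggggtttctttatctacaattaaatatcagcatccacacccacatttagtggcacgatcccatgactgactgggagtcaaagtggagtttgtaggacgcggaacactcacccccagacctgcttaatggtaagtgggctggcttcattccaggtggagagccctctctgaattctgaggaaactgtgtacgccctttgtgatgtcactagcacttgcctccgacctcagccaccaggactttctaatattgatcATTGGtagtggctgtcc
Tmem150c: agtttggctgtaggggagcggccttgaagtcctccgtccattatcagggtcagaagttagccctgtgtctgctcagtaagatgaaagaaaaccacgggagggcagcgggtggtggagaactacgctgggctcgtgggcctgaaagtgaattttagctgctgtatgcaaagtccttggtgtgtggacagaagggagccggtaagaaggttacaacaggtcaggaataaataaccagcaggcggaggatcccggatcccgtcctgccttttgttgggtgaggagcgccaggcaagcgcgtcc
The Tmem63b window held 34 CpG dinucleotides and 3 GC box matches, the Tmem63c window 5 CpG and 1 CCAAT box match, and the Tmem150c window 13 CpG and none of the 5 motifs. These counts depend on the start, since the other windows held 9 CpG for Tmem63c and 21 and 37 CpG for Tmem150c, whose window with 37 CpG had 3 GC box matches and 1 CCAAT box match. A CCAAT box match was found in 37.4% of all windows, a cAMP response element in 1.79% and an AP-1 match in 7.81%. RefSeq windows were kept for 6 of the 7 members. None was kept for Piezo2, because member windows on its chromosome were left out.

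The summed level of 12 pan-neuronal markers was 10948 to 11088 CPM in iKO CFA, 13650 to 13676 CPM in iKO vehicle, 11737 to 14575 CPM in WT CFA and 7213 to 8923 CPM in WT vehicle, with no marker at 0. Tubb3, the neuronal tubulin and the most abundant of them, was at 2711 and 2707 CPM in iKO CFA, 3742 and 3771 CPM in iKO vehicle, 3723 and 2836 CPM in WT CFA and 1653 and 1956 CPM in WT vehicle. The median log2 fold change of these 12 genes was -0.81 in iKO CFA against iKO vehicle, 0.40 in WT CFA against WT vehicle and 0.61 in iKO vehicle against WT vehicle. The members' own medians were -0.42, 0.48 and 0.45 in the same comparisons, beside -0.0011, -0.03 and 0.01 over all genes. The part of neuronal RNA content in the levels of Tmem63b, Tmem63c and Tmem150c was not tested.

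Tmem63a and Tmem120a varied least, by 1.81 and 1.85 times between their lowest and highest library. Tmem63a, the third TMEM63 channel, was at 27.1 and 25.4 CPM in iKO CFA, 24.5 and 22.8 CPM in iKO vehicle, 37.4 and 26.7 CPM in WT CFA and 21.5 and 20.6 CPM in WT vehicle. WT vehicle was lowest and did not overlap any other group. After CFA in WT mice it averaged 32.1 ± 7.63 CPM against 21.1 ± 0.64 CPM after vehicle (SD, n = 2 each), a change of 0.60 ± 0.20 (adjusted p = 0.0726 in edgeR's quasi-likelihood test). The groups did not overlap, as was so for 3 of 7 members and for 56.1% of all genes in that comparison, 25.3% with WT CFA on top and 30.8% with WT vehicle on top. The change reached the threshold once WT CFA library 2 was left out (0.83, adjusted p = 0.00292) and also in DESeq2 (0.57, adjusted p = 0.0415). In iKO mice the change after CFA was 0.15 ± 0.20 (adjusted p = 0.653), under vehicle iKO against WT gave 0.17 ± 0.20 (adjusted p = 0.593), which turned to -0.077 with library totals, and under CFA it gave -0.29 ± 0.20 (adjusted p = 0.541). The interaction of Tmem63a was -0.45 ± 0.28 (adjusted p = 0.304). Without WT CFA library 2 the change under CFA (-0.52, adjusted p = 0.0282) and the interaction (-0.69, adjusted p = 0.0190) passed.

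Tmem120a was at 28.6 and 29.5 CPM in iKO CFA, 25.3 and 25.9 CPM in iKO vehicle, 23.5 and 31.5 CPM in WT CFA and 17.0 and 20.4 CPM in WT vehicle. Again WT vehicle was lowest and did not overlap any other group. Between WT CFA and WT vehicle 56.1% of all genes did not overlap, and between iKO vehicle and WT vehicle 75.4%. Unlike the other TMEM members, Tmem120a was higher in WT CFA library 2 than in library 1. After CFA in WT mice it averaged 27.5 ± 5.65 CPM against 18.7 ± 2.39 CPM after vehicle, a change of 0.56 ± 0.20 (adjusted p = 0.0891 in edgeR's quasi-likelihood test) that passed without WT CFA library 1 (0.74, adjusted p = 0.00589). Under vehicle, 25.6 ± 0.41 CPM in iKO and 18.7 ± 2.39 CPM in WT gave 0.45 ± 0.20 (adjusted p = 0.145, and at most 0.0247 without either WT CFA library), and after CFA in iKO mice the change was 0.18 ± 0.20 (adjusted p = 0.580). Under CFA the difference between iKO and WT was 0.08 ± 0.20 (95% interval -0.38 to 0.53), and it turned to -0.12 without WT CFA library 1. The interaction of Tmem120a was -0.38 ± 0.28 (adjusted p = 0.389) and turned to 0.041 with library totals.

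Related genes were counted in 5 lists, namely Piezo partners, paralogs of the TMEM members, other mechanosensitive or swelling-gated channels, shear-response genes and YAP targets. Over all genes, 16.8% were called in WT CFA against WT vehicle and 17.6% in iKO vehicle against WT vehicle. The interaction was called for 9.36%, iKO CFA against iKO vehicle for 0.0395% and iKO CFA against WT CFA for 1.7%. In what follows, a call lost without 6 libraries was lost without each library but the 2 of WT CFA, and a call lost without 5 also passed without WT vehicle library 2. Of 10 Piezo partners and regulators 9 were tested, and in WT CFA against WT vehicle 0 were higher and 1 lower, with a median change of 0.22 beside -0.03 over all genes. That gene was Flna, the actin crosslinker filamin A that restrains Piezo1 in smooth muscle, at 55.8 and 83.1 CPM in WT CFA and 188 and 144 CPM in WT vehicle (-1.26 ± 0.25, adjusted p = 0.0138 in edgeR's quasi-likelihood test). Both WT CFA libraries lay below both WT vehicle libraries, as they did for 30.8% of all genes. Flna was also lower in iKO vehicle, at 60.3 and 72.9 CPM, than in WT vehicle (-1.32 ± 0.25, adjusted p = 0.0112), and its CFA response differed between genotypes by 2.32 ± 0.35 (adjusted p = 0.00821). These 3 calls were lost without WT vehicle library 1, and the second also without either iKO vehicle library (adjusted p up to 0.135). Anxa6, an annexin that binds membranes in a calcium-dependent way, was higher in iKO vehicle than in WT vehicle by 1.08 ± 0.27 (adjusted p = 0.0310) and had an interaction of -1.49 ± 0.39 (adjusted p = 0.0473), and both calls were lost without 6 of the 8 libraries. Stoml3, a stomatin-like protein that sensitises Piezo channels in mouse touch neurons, had 0 to 10 reads per library and was not tested. In iKO CFA against iKO vehicle and in iKO CFA against WT CFA 0 of 9 passed, the smallest p being that of Stom (0.87 ± 0.19, adjusted p = 0.0937) and of Flna (1.001 ± 0.25, adjusted p = 0.0977).

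Of 29 other mechanosensitive or swelling-gated channels, all tested, 5 were higher and 0 lower in iKO vehicle than in WT vehicle. Their median change was 0.27 beside 0.01 over all genes, of which 8.28% were called higher and 9.33% lower. Tmc2, a transduction channel of inner ear hair cells, was at 3.995 and 5.57 CPM in iKO vehicle, against 0.17 and 0.18 CPM in WT vehicle, with 5 and 6 reads in the WT libraries (4.76 ± 0.52, adjusted p = 0.00137 in edgeR's quasi-likelihood test). Alone of the 29, it was also called in iKO CFA, at 2.80 and 1.75 CPM, against WT CFA, at 0.35 and 0.34 CPM (2.71 ± 0.47, adjusted p = 0.0289). Both iKO libraries lay above both WT libraries under vehicle, as for 38.9% of all genes, and under CFA, as for 21.6%. Tmc2 was not alone of the list in this. The Tmc2 call under vehicle held without each of the 8 libraries, while that under CFA was lost without 6 of them. The acid-sensing channels Asic1, at 105 and 126 CPM in iKO vehicle, against 28.4 and 42.7 CPM in WT vehicle (1.70 ± 0.27, adjusted p = 0.00627), and Asic3, at 103 and 110 CPM in iKO vehicle, against 34.9 and 39.9 CPM in WT vehicle (1.505 ± 0.26, adjusted p = 0.00829), followed. Both calls ended without WT vehicle library 1 or iKO vehicle library 2 (adjusted p up to 0.0985). In WT CFA against WT vehicle 1 of 29 passed, Asic1 at 0.98 ± 0.27 (adjusted p = 0.0402), which was lost without 6 of the 8 libraries. The interaction was negative for Asic1 (-1.85 ± 0.38, adjusted p = 0.0244) and Asic3 (-1.57 ± 0.36, adjusted p = 0.0348), and was lost without 5 libraries for Asic1 and without 6 for Asic3. In iKO CFA against iKO vehicle 0 of 29 passed, with a median of -0.52, and Ano1, a calcium-activated chloride channel, had the smallest p (-1.63 ± 0.29, adjusted p = 0.0831).

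The 3 paralogs of the TMEM members gave 1 call in each of 3 comparisons. Tmem120b was higher in WT CFA, at 18.4 and 20.0 CPM, than in WT vehicle, at 8.44 and 13.2 CPM (0.82 ± 0.23, adjusted p = 0.0448 in edgeR's quasi-likelihood test), and lost the call without 5 of the 8 libraries. Tmem150a was lower in iKO vehicle, at 1.64 and 1.69 CPM, than in WT vehicle, at 3.62 and 3.87 CPM (-1.17 ± 0.33, adjusted p = 0.0420), with an interaction of 1.79 ± 0.46 (adjusted p = 0.0461), and lost both calls without 6 of the 8 libraries. In iKO CFA against iKO vehicle and in iKO CFA against WT CFA 0 of 3 passed, Tmem150a having the smallest p in each (1.003 ± 0.33, adjusted p = 0.111, and 0.63 ± 0.32, adjusted p = 0.408).

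Piezo1 signals in endothelium to the shear-response genes and, in several cell types, to the transcription coactivator YAP. Of 4 shear-response genes, Klf2, a transcription factor that flow induces in endothelium, fell in WT mice after CFA, at 6.65 and 9.82 CPM against 27.3 and 20.6 CPM after vehicle (-1.54 ± 0.25, adjusted p = 0.00780 in edgeR's quasi-likelihood test). It was also lower in iKO vehicle, at 8.41 and 9.04 CPM, than in WT vehicle (-1.46 ± 0.25, adjusted p = 0.00829), and had an interaction of 2.39 ± 0.36 (adjusted p = 0.00812). All 3 Klf2 calls were lost without WT vehicle library 1, and the second also without either iKO vehicle library (adjusted p up to 0.0929). They rest on the WT vehicle libraries, which were also high in lymphocyte markers and immediate early genes, and the cell type behind the Klf2 values was not tested. Thbd, the endothelial anticoagulant receptor thrombomodulin, had an interaction of 1.59 ± 0.35 (adjusted p = 0.0302), lost without 6 of the 8 libraries. No other gene of the list passed in a comparison of single groups, and in iKO CFA against iKO vehicle and iKO CFA against WT CFA Thbd had the smallest p (1.4999 ± 0.25, adjusted p = 0.0831, and 0.98 ± 0.25, adjusted p = 0.107).

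Of 7 YAP targets 6 were tested, and 2 were lower and 0 higher in WT CFA than in WT vehicle. Ccn1, a secreted matricellular protein, was at 2.59 and 3.29 CPM in WT CFA and 81.4 and 109 CPM in WT vehicle (-5.02 ± 0.26, adjusted p = 1.3e-04 in edgeR's quasi-likelihood test), and the receptor tyrosine kinase Axl was at 36.0 and 57.3 CPM in WT CFA and 105.7 and 77.2 CPM in WT vehicle (-0.97 ± 0.25, adjusted p = 0.0326). In iKO vehicle against WT vehicle 2 genes were lower, Ccn1 at 4.36 and 4.54 CPM in iKO vehicle (-4.42 ± 0.25, adjusted p = 2.1e-04) and Axl at 45.6 and 46.2 CPM (-0.99 ± 0.25, adjusted p = 0.0300). Both comparisons rest on the WT vehicle libraries, in which Ccn1 was high. All 8 immediate early genes were likewise called lower in both comparisons, with 0 higher, and 7 of them had a positive interaction call. The part of Piezo1 in the Klf2 and YAP target values was not tested. The interaction passed for Ccn1 (5.22 ± 0.34, adjusted p = 8.4e-04), Axl (1.80 ± 0.35, adjusted p = 0.0208) and Ccn2, a relative of Ccn1 (2.87 ± 0.75, adjusted p = 0.0481). The 3 Ccn1 calls held without each library in turn, while those of Axl were lost without 5 or 6 libraries and that of Ccn2 without 6. In iKO CFA against iKO vehicle and iKO CFA against WT CFA 0 of 6 passed, Ccn2 having the smallest p in each (2.59 ± 0.54, adjusted p = 0.0903, and 2.07 ± 0.53, adjusted p = 0.113).

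**Figure D5:**
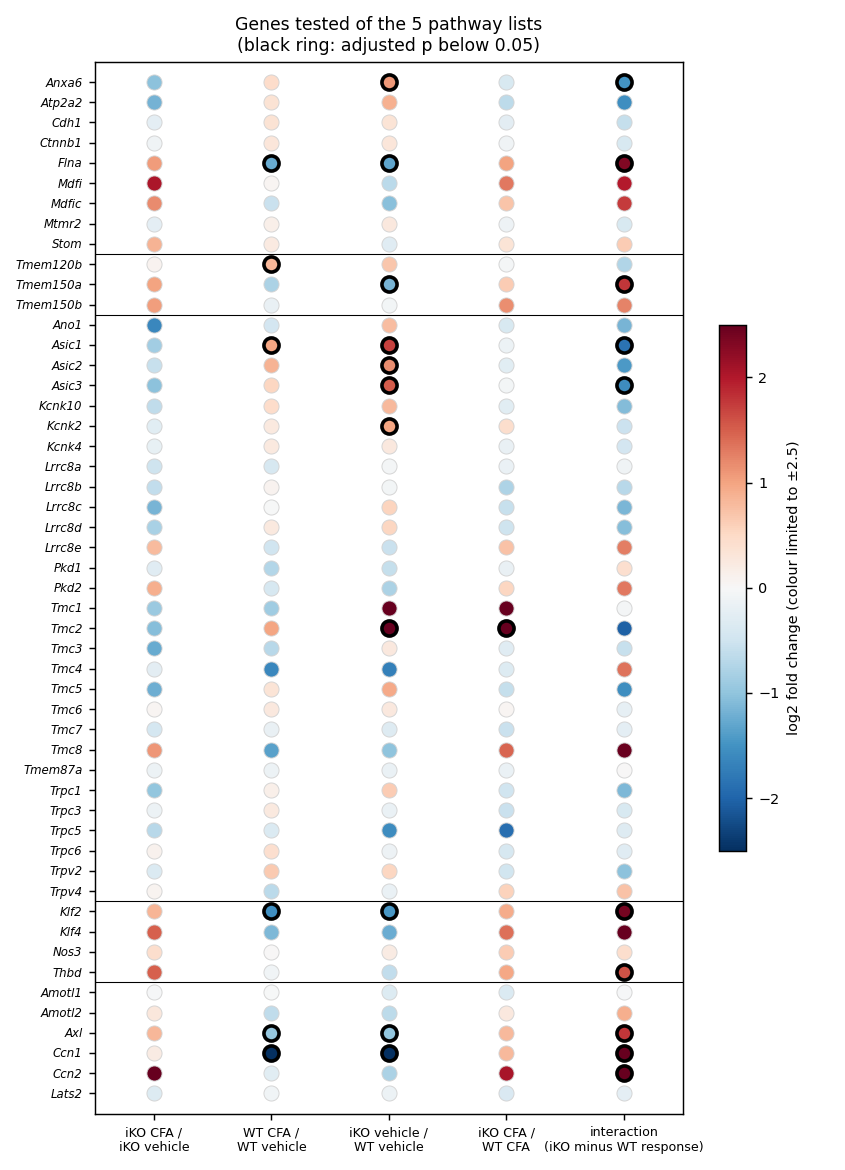
Log2 fold change, as colour limited to ±2.5, of each tested gene of the 5 lists (Piezo partners, paralogs, other channels, shear response and YAP targets, from top to bottom, divided by lines) in the 4 comparisons and the interaction. Black rings mark an adjusted p below 0.05, among them Tmc2 at 4.76 and Ccn1 at -4.42 in iKO vehicle against WT vehicle.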

How the data were processed

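Per the submitters' processing notes, the authors aligned reads with HISAT2 2.2.1 to GRCm39 (mm39), handled them with SAMtools 1.19.2, counted them with featureCounts 2.0.6 and used DESeq2 (version not given). Annotation, read layout and strand setting are not given in the sources used here. The deposited values are raw counts of reads per gene symbol, without scaling for depth or gene length, so levels are compared within a gene only.

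From these counts edgeR 4.0.16 in R 4.3.3 was run with filterByExpr, TMM scaling and a quasi-likelihood model (legacy = TRUE) with 1 mean per group over all 8 libraries, so the groups share 1 estimate of the spread (common dispersion 0.0753, 4 residual degrees of freedom, 4.68 prior ones). P-values are two-sided. The script was tested on simulated data. No 2 libraries were identical. Alternatives were DESeq2 1.42.0, other scalings, no filter, legacy = FALSE, a replicate block, only the groups compared and leaving out each library.

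The members and gene lists were chosen with earlier results of these data known. In a list, up to 3 called genes with the smallest p were named, or the 1 with the smallest p where 0 passed; of cell type lists, only levels. The 5 genes most like Piezo1 and Piezo2 were taken by Pearson correlation of log2 CPM with a prior count of 2, leaving out gene models without an established name.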

Additional observations from a re-analysis of the deposited data

Results flagged for a closer look

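Piezo1 responded differently to CFA in the 2 genotypes by a test of the difference itself. The CFA response in iKO mice minus that in WT mice was 2.22 on the log2 scale (standard error 0.35, adjusted p = 0.00984 in edgeR's quasi-likelihood test over all 20235 genes). It is made of a change of 0.65 in iKO mice, which did not pass, and of -1.57 in WT mice, which did. It no longer passed on leaving out library 1 of WT vehicle (2.12, adjusted p = 0.0616 in the same test) or library 2 of iKO vehicle (2.13, adjusted p = 0.0612). Of all genes 9.36% were called in this interaction, 6.19% in the positive and 3.17% in the negative direction. Positive calls were also found for 8 of 9 lymphocyte, 6 of 10 macrophage and 4 of 14 endothelial markers, with 0 negative. Of 6 neutrophil and 4 erythroid markers 0 were called. The WT vehicle libraries stood apart in lymphocyte markers and immediate early genes, and library 1 of them also in skeletal muscle markers. The part of these differences in the Piezo1 value was not tested.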

How the results depend on the processing

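Of 525 values of the members under alternatives, 452 stayed on their side of the threshold with their direction, 49 newly passed, 14 no longer passed and 10 changed sign. Leaving out each library moved the members called between 0 and 4 (iKO CFA against iKO vehicle), 0 and 5 (WT CFA against WT vehicle), 0 and 5 (iKO vehicle against WT vehicle), 0 and 4 (iKO CFA against WT CFA) and 0 and 6 (interaction), and all genes called between 0 and 6951, 259 and 7474, 394 and 8464, 73 and 5819, and 228 and 8303 in that order. In such fits the lone library of a group is assumed to vary like the other groups. DESeq2 called 3449, 5154, 1232 and 4133 genes in iKO CFA against iKO vehicle, WT CFA against WT vehicle, iKO CFA against WT CFA and the interaction, with 3, 2, 1 and 3 members. Fitting only the groups compared called 8309, 754, 8179 and 33 genes in the 4 comparisons, with 5 members in the first and 4 in iKO vehicle against WT vehicle. In iKO CFA against iKO vehicle, where 8 genes passed, library totals called 24, no filter 510 and legacy = FALSE 181, and in iKO CFA against WT CFA legacy = FALSE called 543. In the interaction no filter called 2 members and 2157 genes and legacy = FALSE 2 members and 2239 genes, and in iKO vehicle against WT vehicle library totals called 1 member and 3522 genes. Library totals moved the median of all genes to -0.35 (WT CFA against WT vehicle), -0.23 (iKO vehicle against WT vehicle), 0.15 (iKO CFA against WT CFA) and 0.38 (interaction), and the share of calls that were higher to 14.6%, 21.9%, 93.7% and 94.2%, against 48.2%, 47.0%, 87.8% and 66.1% with TMM.

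Over the libraries left out, values that changed sign ran from -0.15 to 0.96 for Tmem63c and from -1.30 to 0.16 for Piezo2 in WT CFA against WT vehicle, from -0.35 to 0.16 for Piezo2 in iKO vehicle against WT vehicle, and in iKO CFA against WT CFA from -0.66 to 0.040 for Tmem63b, -0.88 to 0.23 for Tmem63c, -0.12 to 0.30 for Tmem120a and -0.44 to 0.11 for Tmem150c. Library totals turned Tmem63a in iKO vehicle against WT vehicle (-0.077) and Tmem120a in the interaction (0.041). The cause was not tested. Whether the replicate numbers mark a shared litter, batch or day is not stated. Deviations of library 1 from its group mean had correlations between groups of -0.14 to 0.03, which cannot show whether they do. The replicate block called 0, 207 and 1062 genes in iKO CFA against iKO vehicle, iKO CFA against WT CFA and the interaction. In iKO vehicle against WT vehicle it called 1 member and 2547 genes. A pairing with crossed WT vehicle numbers, chosen after seeing the data, called 3591 genes and 1 member in WT CFA against WT vehicle. Levels per kilobase were not run because no gene lengths of the build were at hand. With 2 libraries a group, intervals are wide, and Piezo1, with 139 to 467 reads per library, is the least deeply counted member.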
